A study of Mus musculus with 2 samples.

Results

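Fatty acid oxidation was followed through 8 genes, Ppara, Cpt1a, Cpt2, Acadm, Acadl, Hadha, Hadhb and Ehhadh, in single cells of the mouse jejunal crypt. The genes were taken from a fixed list of names and not by a filter on their values. Earlier results of these data were known when that list was chosen. The genes are 8 of the 27998 genes in the UMI matrices, where a UMI (unique molecular identifier) stands for 1 captured RNA molecule. Crypts came from the jejunum of 2 male mice of 12 months of age, replicates 1 and 2, both whole-body miR-375 knockout, with the strain label C57BL6/2J and, in the protocol, B6 albino. The study's methods describe a CRISPR/Cas9 deletion followed by backcrossing to B6 albino mice. Both mice carry the deletion, so no comparison below measures an effect of miR-375, and wild-type cells were not analysed here. The deletion itself was not checked from these counts, since the assay reads the 3′ ends of polyadenylated RNA. Libraries were made with the 10x 3′ v2 kit after dispase digestion, and each mouse gave 1 library.

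Fatty acids are burned in steps. They are coupled to coenzyme A, passed into mitochondria by the carnitine shuttle and shortened in repeated rounds of dehydrogenation, hydration, second dehydrogenation and thiolysis, while peroxisomes run a parallel route. Acetyl-CoA from these rounds can be turned into ketone bodies. PPARα, the product of Ppara, is a lipid-activated nuclear receptor that induces many of these enzymes, and in the intestine the route is best known from absorptive cells and from stem cells.

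The authors kept 2082 cells in replicate 1, with 44017234 UMIs, and 1193 in replicate 2, with 22163354. The libraries shared 0 cell barcodes. The authors named 10 cell types, 9 of them epithelial with 3207 cells, and 1 of intraepithelial lymphocytes (IEL) with 68 cells. Of 53 marker genes, 49 were highest in their own type in both mice, including 6 of 6 for enterocytes, 5 of 6 for stem cells and 4 of 6 for transit-amplifying (TA) cells. Enterocytes had the highest median mitochondrial percent of any type, 13.2% in replicate 1 and 7.59% in replicate 2. The part of this difference in the results was not tested. The summed libraries ranged from 215413 UMIs in enteroendocrine cells (EEC) of replicate 2 to 19366535 UMIs in enterocytes of replicate 1. Levels are given as CPM, the UMIs of a gene per 1000000 UMIs of all genes in the cells of 1 type and mouse.

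The start regions of 3 genes are shown, 1 for the pair of members that share it and 2 that hold a 6-base motif of nuclear receptor sites. Each is a RefSeq window on GRCm38.p6, from 250 bases before to 50 bases after the gene's start in RefSeq. The gene positions given further below are from GENCODE M21, where the start can differ. For Cpt1a the GENCODE span begins at 3322334, so the whole window lies inside it. The motif marked in that window is before the RefSeq start and after the GENCODE start. The windows of Hadha and Hadhb, which lie head to head on chromosome 5, share 228 bases (chr5:30155003-30155230), printed in capitals in the Hadhb window (chr5:30155003-30155302, plus strand). In GENCODE M21 85 bases lie between the starts of these genes.
Hadhb: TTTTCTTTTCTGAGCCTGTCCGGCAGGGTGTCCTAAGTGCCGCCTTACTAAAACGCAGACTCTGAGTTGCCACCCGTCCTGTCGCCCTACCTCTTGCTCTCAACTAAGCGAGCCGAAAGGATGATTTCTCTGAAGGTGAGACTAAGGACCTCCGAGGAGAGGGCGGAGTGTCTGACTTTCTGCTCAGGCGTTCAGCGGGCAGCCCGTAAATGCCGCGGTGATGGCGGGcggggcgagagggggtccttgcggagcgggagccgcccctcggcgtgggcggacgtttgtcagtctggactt
In the other 2 windows capitals mark a 6-base motif of nuclear receptor sites (AGGTCA, here as its reverse complement TGACCT). A single copy is only 1 unit of the paired motif searched below, and binding was not measured.
Cpt1a (chr19:3323051-3323350, plus strand): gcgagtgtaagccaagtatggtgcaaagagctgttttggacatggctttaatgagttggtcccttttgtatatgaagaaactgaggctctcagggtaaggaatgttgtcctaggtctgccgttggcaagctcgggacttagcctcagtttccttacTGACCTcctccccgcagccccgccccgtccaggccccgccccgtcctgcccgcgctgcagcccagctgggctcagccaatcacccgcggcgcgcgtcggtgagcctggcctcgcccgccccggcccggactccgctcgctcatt
Acadm (chr3:153944594-153944893, minus strand): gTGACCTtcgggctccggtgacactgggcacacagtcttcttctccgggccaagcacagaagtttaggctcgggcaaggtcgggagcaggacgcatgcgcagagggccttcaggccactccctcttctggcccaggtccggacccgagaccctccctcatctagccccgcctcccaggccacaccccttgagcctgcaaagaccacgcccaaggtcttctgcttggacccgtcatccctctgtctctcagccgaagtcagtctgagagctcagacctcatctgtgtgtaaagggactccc
All 8 members were found in the promoter table. The 6-base motif, searched on both strands, lay in 2 of them, Cpt1a and Acadm, and in 16.3% of the 32851 windows of all genes. A longer motif known for estrogen-related receptors, TNAAGGTCA, which contains the 6-base motif, was in 0 of 8 members and in 1.28% of all windows. A pair of the 6-base motifs on one strand, 1 base apart and with at most 2 mismatches in 12 bases, was in 0 of 8 members and in 3.86% of all windows. In Acadm the motif lies at bases 2 to 7 of the window, so a partner before it could not be seen. Sites outside the 300-base windows were not searched, so these counts do not show that a member lacks receptor sites. The members' windows held 57.3% to 74.7% G and C, and the median over all windows was 52.7%.

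Enterocytes, the absorptive cells, had the highest level of 7 of the 8 members among the 9 epithelial types. Against the unweighted mean of the other 8 epithelial types, 8 members were higher and 0 lower in enterocytes. At the same threshold 31.3% of the 11013 genes tested were higher and 23.2% lower. The members' median log2 fold change was 1.47, and that of all genes tested was 0.03. Enterocytes held 62.1% of the members' epithelial UMIs and 44.3% of all epithelial UMIs in replicate 1, and 44.5% against 24.4% in replicate 2. The authors' type names rest on expression in these very cells, and the tests therefore measure the distance between classes that expression itself defined. The p-values rest on 2 mice. Cpt1a was the exception in order and size.

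**Figure D1:**
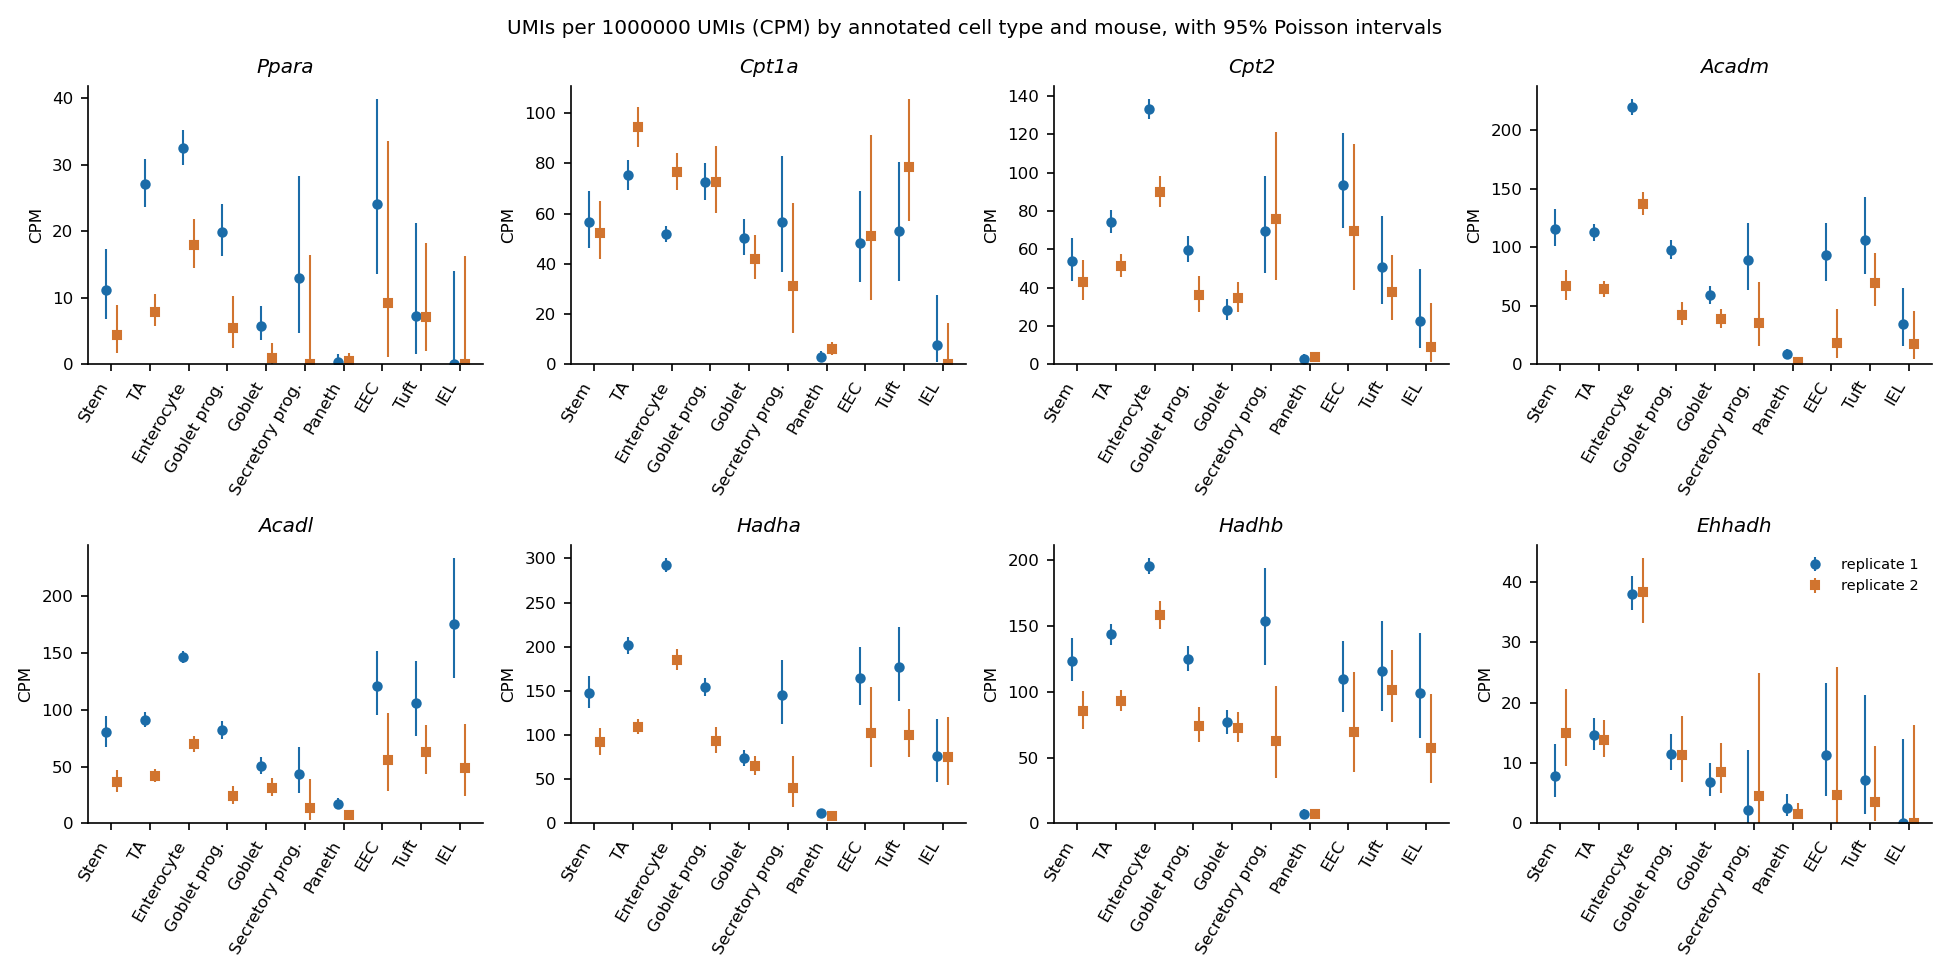
CPM (UMIs per 1000000 UMIs, vertical axes) of the 8 members in the 10 annotated types (horizontal axes), with blue circles for replicate 1, orange squares for replicate 2 and bars for exact Poisson 95% intervals. Enterocytes stand highest for most members, and Paneth cells lie between 0.284 CPM (Ppara) and 17.1 CPM (Acadl).

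Ppara, on chromosome 15 (85734983 to 85802819, plus strand), encodes the receptor itself. It measured 32.5 CPM in enterocytes of replicate 1 and 17.9 in replicate 2. In TA cells, the dividing progeny of stem cells, it measured 27.1 and 7.87 CPM, and in stem cells 11.2 and 4.36 CPM. The level in replicate 2 was lower than in replicate 1 in 8 of 9 epithelial types, so that enterocytes of replicate 2 were below TA cells of replicate 1, while enterocytes led TA cells within each mouse. Goblet cells, which secrete mucus, had 5.82 and 0.894 CPM, and their progenitors 19.9 and 5.40 CPM. Ppara was 4.04-fold higher in enterocytes than in the mean of the other types (log2 fold change 2.02 ± 0.21 SE, adjusted p = 9.3e-10). In IEL it had 0 UMIs in both mice, which allows up to 11.4 CPM in replicate 1 and 13.3 CPM in replicate 2, counting error only.

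Cpt1a (chromosome 19, 3322334 to 3385733, plus strand) encodes the enzyme of the outer mitochondrial membrane that commits long-chain fatty acids to the carnitine shuttle. Its levels were flat compared with the other members. TA cells had 75.2 CPM in replicate 1 and 94.3 in replicate 2, goblet progenitors 72.4 and 72.6, tuft cells 53.2 and 78.6, and enterocytes 51.8 and 76.5. Stem cells followed with 56.6 and 52.4 CPM. This order is of unscaled CPM. On the level scaled by TMM, described below for Paneth cells, enterocytes had rank 2, with a mean of 61.3 against 61.8 in TA cells. None of the 8 steps between neighbours in the unscaled order passed the test. Enterocytes exceeded the mean of the other types by 0.48 ± 0.15 on the log2 scale (adjusted p = 0.00776). This call was lost when the other types were pooled cell by cell (0.13, adjusted p = 0.368).

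Cpt2, on chromosome 4 (107903981 to 107923610, minus strand), completes the shuttle at the inner membrane. Enterocytes had 133 and 89.9 CPM in replicates 1 and 2. EEC, the hormone cells, came next with 93.5 and 69.6 CPM, followed by secretory progenitors with 69.5 and 75.9 CPM and TA cells with 74.4 and 51.2 CPM. Within each mouse no epithelial type reached the enterocyte level. Cpt2 was 2.85-fold higher in enterocytes than in the mean of the others (log2 1.51 ± 0.14, adjusted p = 5.7e-11). The 2 shuttle enzymes were not tested against each other.

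Acadm and Acadl encode the medium-chain and long-chain acyl-CoA dehydrogenases, which take the first step of each round. Acadm (chromosome 3, 153922357 to 153944632, minus strand) measured 219.9 CPM in enterocytes of replicate 1 and 137 in replicate 2. Stem cells had 116 and 66.7 CPM and TA cells 113 and 64.2, nearly alike within each mouse. Goblet cells were lower, at 59.0 and 38.4 CPM. The fold for enterocytes against the mean of the others was 3.36 (log2 1.75 ± 0.13, adjusted p = 2.9e-13). Acadl (chromosome 1, 66830839 to 66863277, minus strand) measured 146 and 69.7 CPM in enterocytes, 121 and 55.7 in EEC, 106 and 62.5 in tuft cells, and 91.4 and 42.0 in TA cells. Its lead was smaller, 2.24-fold against the mean of the others (log2 1.16 ± 0.13, adjusted p = 3.7e-09). Acadl was also the member with the highest IEL level relative to enterocytes, 175 CPM (95% interval 128 to 234) from 46 UMIs in 50 cells of replicate 1 and 48.8 CPM (24.4 to 87.3) from 11 UMIs in 18 cells of replicate 2. Fabp2, a fatty acid-binding protein of enterocytes, stood in IEL at 2.30% of its enterocyte CPM in replicate 1 and at 0 in replicate 2. The part of enterocyte RNA in the Acadl level of IEL was not tested.

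Hadha and Hadhb encode the α and β subunits of the mitochondrial trifunctional protein, which carries out the last 3 steps of a round on long chains. They are neighbours on chromosome 5 (Hadha 30118304 to 30155162, minus strand, and Hadhb 30155248 to 30184593, plus strand) and share the start region printed above. Hadha measured 293 CPM in enterocytes of replicate 1 and 185 in replicate 2, against 201 and 110 CPM in TA cells and 147 and 91.6 CPM in stem cells. Hadhb measured 196 and 158 CPM in enterocytes, 144 and 92.9 in TA cells, and 124 and 85.4 in stem cells. Enterocytes led in both mice for both subunits, by 2.69-fold for Hadha (log2 1.43 ± 0.12, adjusted p = 1.1e-11) and 2.35-fold for Hadhb (log2 1.23 ± 0.12, adjusted p = 3.6e-10) over the mean of the others. Across the 18 sums, centred within each mouse, the subunits' log2 levels correlated at r = 0.86, the highest value among the pairs of members. Ppara with Hadha (0.85) and Acadm with Hadhb (0.84), which are on different chromosomes, were close to it. Neither subunit was among the 3 genes most like the other, which are given below. The 18 points share 2 mice, so no p is given.

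Ehhadh (chromosome 16, 21761287 to 21787807, minus strand) encodes the bifunctional enzyme of the peroxisomal route and is a classical PPARα target. Enterocytes had 38.1 CPM in replicate 1 and 38.3 in replicate 2, TA cells 14.7 and 13.8, goblet progenitors 11.5 and 11.4, and stem cells 7.85 and 15.0. The 2 mice differed little for this gene in enterocytes, TA cells and goblet progenitors. Ehhadh had the largest fold of the members, 5.46 over the mean of the other types (log2 2.45 ± 0.18, adjusted p = 3.0e-13). No Ehhadh UMI was found in IEL.

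The order of the types was tested over all 36 pairs. Enterocytes were higher than each of the 8 other types for Ppara, Cpt2, Acadm, Hadha, Hadhb and Ehhadh, than 7 types for Acadl and than 2 types, EEC and Paneth cells, for Cpt1a. For Acadl the exception was Paneth cells (0.29 on the log2 scale, adjusted p = 0.314). Among all genes tested, 27.8% were higher in enterocytes than in stem cells, 26.9% than in goblet progenitors, 23.9% than in goblet cells, 20.4% than in secretory progenitors, 21.3% than in Paneth cells, 21.6% than in EEC and 21.1% than in tuft cells. Types were also compared with their neighbours in order of mean CPM, which are the closest pairs by construction. Of the 64 such steps over the 8 members, 54 did not pass the test, and 7 of the 10 that did were the step from enterocytes to the next type. Of the 55 steps that do not involve enterocytes 3 passed, in pairs of types that differed in 3.52% to 31.5% of all genes. They were Acadl from goblet cells to secretory progenitors (log2 0.98, adjusted p = 0.0385, with 15.9% of all genes differing in this pair), and Acadl and Ehhadh between secretory progenitors and Paneth cells (18.8% of all genes). The Ehhadh call rests on 1 UMI in secretory progenitors of each mouse.

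Paneth cells, the antimicrobial cells of the crypt base, need a separate reading. Their 10 most abundant genes took 82.6% and 81.9% of their UMIs, so that every other gene has a low CPM, and 8 of 8 members were lowest in Paneth cells on that scale. The TMM factors of the fit, which scale each sum by the bulk of its genes, were 0.156 and 0.121 for Paneth cells and 0.952 to 1.59 for the others. On the scaled level Paneth cells were lowest for 3 of 8 members, and second after enterocytes for Acadl and Ehhadh. In the fit, Acadl and Ehhadh were accordingly lower in secretory progenitors than in Paneth cells (−1.97 and −2.76 on the log2 scale, adjusted p = 6.3e-05 and 0.0227). Their mean CPM ran the other way. Ehhadh had only 1 UMI in secretory progenitors of each mouse and 9 and 7 in Paneth cells. Its call and its scaled rank in Paneth cells thus rest on few counts. Acadl had 20 and 3 UMIs in secretory progenitors and 60 and 31 in Paneth cells. The type with the highest level was the same on both scales for 8 of 8 members.

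In the absorptive step, from dividing TA cells to enterocytes, 7 members were higher and 0 lower. In this comparison 29.1% of all genes were higher and 22.6% lower. Ehhadh rose most, 3.56-fold (log2 1.83 ± 0.20, adjusted p = 5.6e-09), then Acadm 2.70-fold, Cpt2 2.37-fold, Acadl 2.17-fold, Hadha 2.07-fold, Ppara 2.05-fold and Hadhb 2.01-fold, with adjusted p between 6.6e-08 and 0.000308. Cpt1a was level, at −0.02 ± 0.19 (adjusted p = 0.944). The per-mouse values of the 7 were positive in both mice, for example 0.75 and 1.42 for Ppara and 1.46 and 1.39 for Acadm. Without the mouse as a block, 3 members passed (Cpt2, Hadhb and Ehhadh), with all folds of the same sign, and the count over all genes fell from 5694 to 2843.

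**Figure D2:**
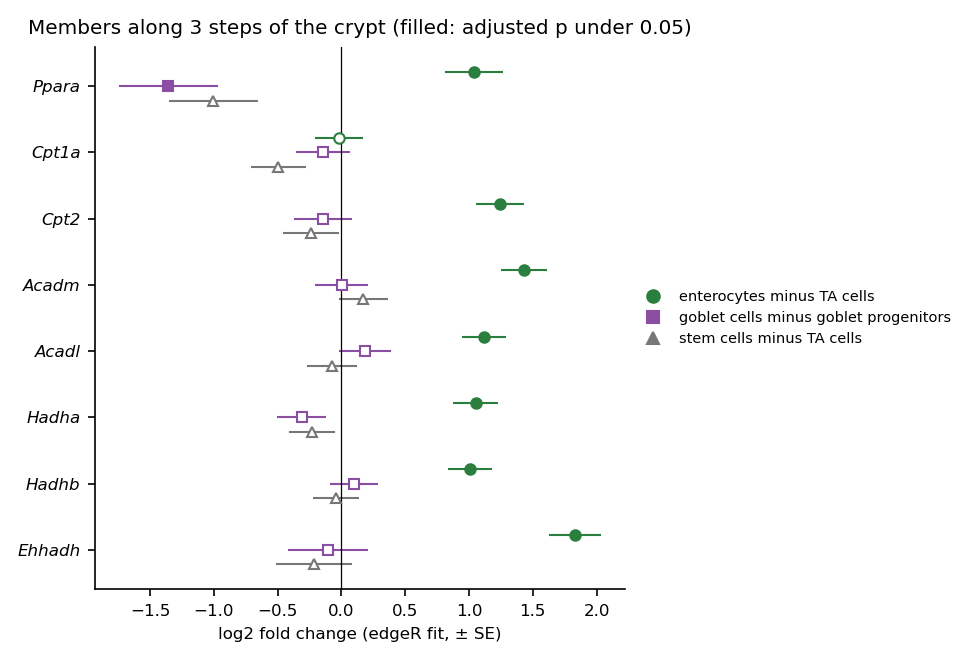
Log2 fold change ± SE from the edgeR fit (horizontal axis) of each member (rows) for enterocytes minus TA cells (green circles), goblet cells minus goblet progenitors (purple squares) and stem cells minus TA cells (grey triangles), filled where the adjusted p was under 0.05. The green points lie at 1.01 or above except for Cpt1a at −0.02, and the purple points lie between −0.31 and 0.19 except for Ppara at −1.36.

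Stem cells were compared with TA cells next. By edgeR's test 0 of 8 members were higher and 0 lower in stem cells, with 2 at an unadjusted p under 0.05, where 1.90% of all genes were higher and 2.93% lower, so that a count of 0 is near the background and says nothing particular about the members. DESeq2 also called 0. Ppara came nearest, at −1.01 ± 0.35 (adjusted p = 0.0989), negative in both mice (−1.11 and −0.64), and passed when genes of low count were not filtered out (adjusted p = 0.0183). Acadm was at 0.17 ± 0.19, Hadhb at −0.04 ± 0.18 and Acadl at −0.07 ± 0.20.

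The goblet lineage was read in the same way. From goblet progenitors to goblet cells 0 members rose and 1 fell, while 16.0% of all genes rose and 13.2% fell. Ppara fell by 1.36 on the log2 scale (± 0.39, adjusted p = 0.00775), which is 2.56-fold. The other 7 lay between −0.31 for Hadha and 0.19 for Acadl, and 1 member, Ppara, had an unadjusted p under 0.05. DESeq2 gave the same counts. This comparison was the one most dependent on scaling. With library totals alone 4 members were lower (Ppara, Cpt1a, Cpt2 and Hadha), and with the cells thinned to 5000 UMIs 0 were, Ppara then at −1.84 (adjusted p = 0.0724). Library totals leave out TMM factors of 0.994 and 0.952 in goblet cells and 1.45 and 1.28 in goblet progenitors, which act on every gene. The share of all genes called lower in this step is not given for these settings, so the counts do not single out the members.

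The absorptive and goblet steps were then set against each other in the same fit. The difference was positive and past the threshold for 7 members and negative for 0, against 14.7% and 10.1% of all genes. Ppara differed most, by 2.39 ± 0.44 on the log2 scale (adjusted p = 0.000123), then Ehhadh by 1.94 ± 0.37 and Acadm by 1.43 ± 0.27. The smallest that passed was Hadhb, by 0.91 ± 0.25 (adjusted p = 0.00753). The size depended on the mouse: in replicates 1 and 2 alone it was 1.91 and 3.11 for Ppara, 1.87 and 0.74 for Cpt2, and 1.32 and 0.23 for Acadl. Cpt1a again did not pass (0.12 ± 0.29, adjusted p = 0.809). Without the mouse block 1 member passed, Ehhadh (1.92, adjusted p = 0.0218), and the other values kept their sign with adjusted p between 0.0663 and 0.948.

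Enterocytes fell into 5 of the authors' clusters. Ordered by Apoa4, an apolipoprotein of mature enterocytes, the order was clusters 2, 6, 9, 3 and 1 in both mice, with 290, 224, 157, 288 and 354 cells. Clusters were defined from these cells' expression, so their levels are a description. Ehhadh rose along the order from 16.6 to 63.8 CPM in replicate 1 and from 22.9 to 83.8 in replicate 2. Acadl was 108 and 47.8 CPM in the first cluster and 221 and 122 in the last. Cpt1a ran the other way, from 83.2 to 33.8 CPM and from 87.1 to 43.1, and Ppara went from 43.7 to 28.5 and from 21.0 to 6.80. Median mitochondrial percent rose along the same order, from 10.2% to 15.1% in replicate 1 and from 5.89% to 9.65% in replicate 2, and Mki67, a marker of dividing cells, fell from 20.6 and 28.2 CPM to 0 in both. Their part in the members' trends was not tested. Acadm, Cpt2, Hadha and Hadhb were between 1.11 and 2.15 times as high in the last cluster as in the first in each mouse.

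**Figure D3:**
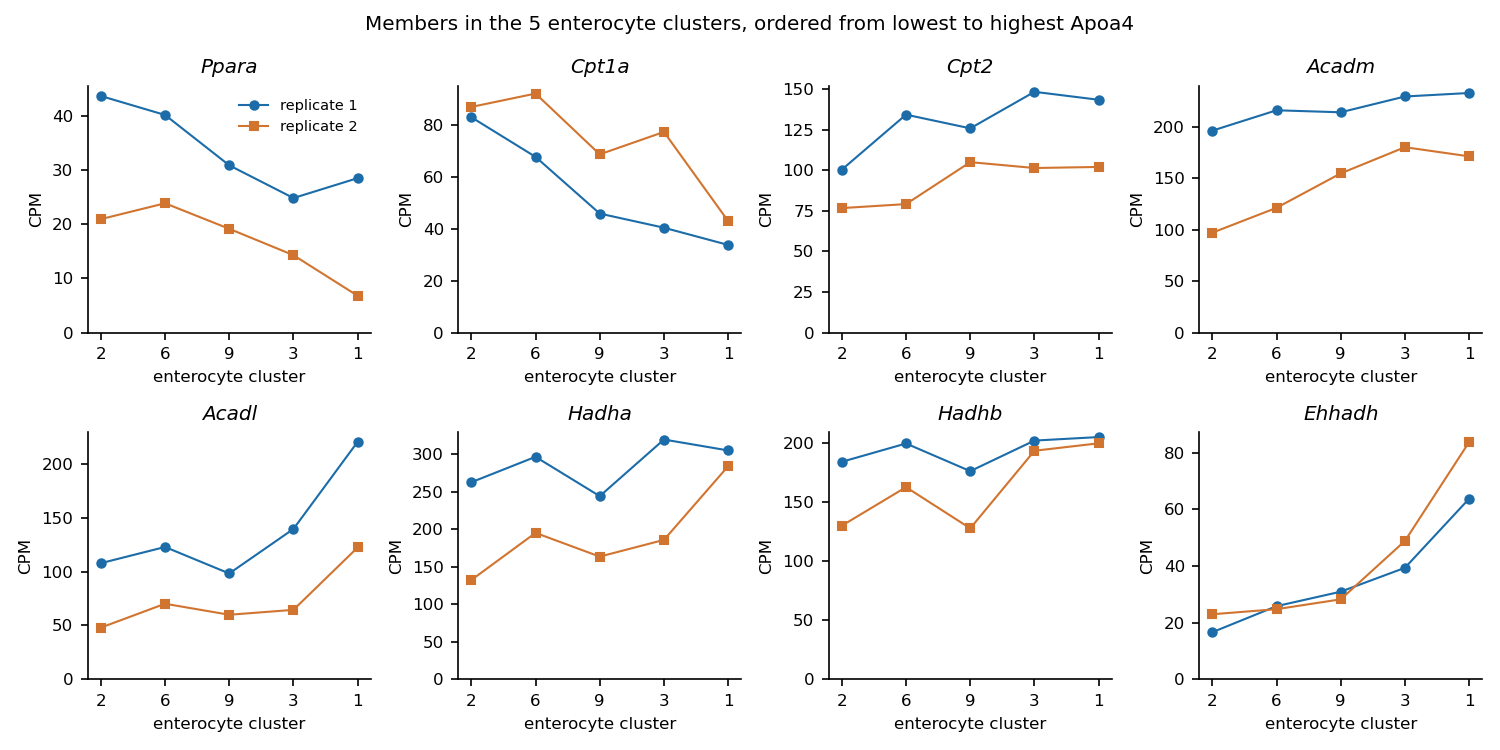
CPM (vertical axes, from 0) of each member in the 5 enterocyte clusters, placed from lowest to highest Apoa4 (horizontal axes), with blue circles for replicate 1 and orange squares for replicate 2. Ehhadh climbs 3.85-fold and 3.66-fold from the first to the last cluster, while Cpt1a drops 2.46-fold and 2.02-fold.

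The rest of the pathway was read from 7 lists with 76 genes, of which 65 passed the filter on low counts. In enterocytes against the mean of the other types 53 were higher and 3 lower, beside the 31.3% and 23.2% of all genes given above. The peroxisomal list was higher in 11 of 11 tested. Acaa1b, a peroxisomal thiolase, led with a log2 fold change of 4.34 ± 0.48, then Hsd17b4, the D-bifunctional enzyme of the route, with 2.59 ± 0.12 and Scp2, a thiolase and sterol carrier, with 2.51 ± 0.10. Hsd17b4 measured 212 and 140.4 CPM in enterocytes and 62.1 and 38.5 in TA cells. Acaa1b has a close paralog, Acaa1a, and the handling of reads that match both genes was not checked.

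Of the other mitochondrial oxidation enzymes 12 of 14 were higher and 0 lower, with Acad11 at 2.85 ± 0.16, Hadh, the short-chain dehydrogenase, at 2.19 ± 0.12 and Decr1, which handles unsaturated chains, at 1.86 ± 0.13. Among activation and shuttle genes 6 of 9 were higher. Slc27a4, the main fatty acid transport protein of enterocytes, rose by 4.52 ± 0.17, Acsl5 by 3.45 ± 0.15 and Crat by 2.74 ± 0.18. Slc27a4 had 230.0 and 216 CPM in enterocytes and 21.3 and 20.6 in TA cells. The 2 lower genes of this list were acyl-CoA synthetases, Acsl4 at −2.32 ± 0.60, with 19.3 and 19.6 CPM in tuft cells and 0.310 and 0.561 in enterocytes, and Acsl3 at −1.0 ± 0.29, whose value in replicate 2 alone was 0.40.

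Receptors and coactivators were higher in 9 of 10 and lower in 0. Creb3l3, a membrane-bound transcription factor of lipid metabolism, stood at 6.18 ± 0.20, Ppargc1a, the coactivator of PPAR and estrogen-related receptors, at 4.39 ± 0.20 and Esrra at 2.21 ± 0.14. Creb3l3 measured 247 and 157 CPM in enterocytes and 12.2 and 7.52 in TA cells. Outside oxidation, 11 of 13 PPARα targets were higher, led by Fabp1 at 8.58 ± 0.88, Cd36 at 7.15 ± 0.34 and Fabp2 at 6.34 ± 0.14. Mgll, which releases the last fatty acid from stored fat, was lower at −2.89 ± 0.55, with 79.0 and 27.9 CPM in EEC, 12.1 and 33.9 in tuft cells and 0.465 and 0.935 in enterocytes. Of the malonyl-CoA enzymes, which set the inhibitor of Cpt1a, 1 of 3 was higher, Mlycd at 0.76 ± 0.14. With 31.3% of all genes higher in this comparison, that count is near the background.

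**Figure D4:**
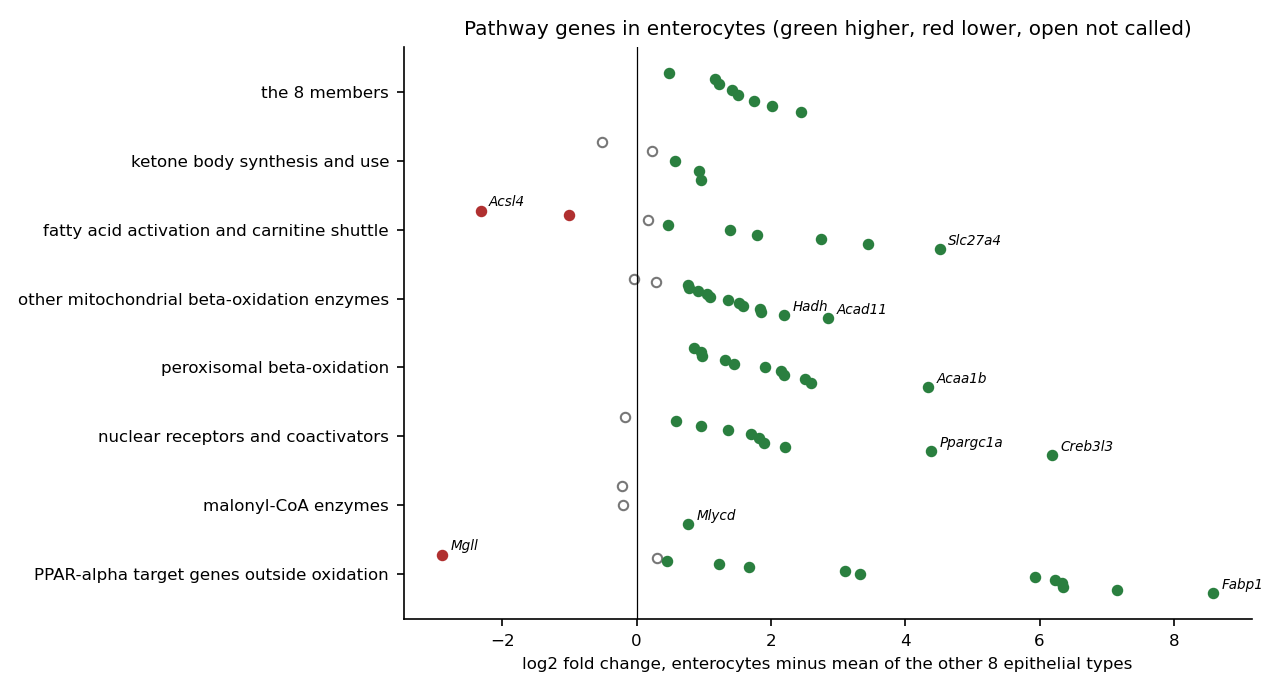
Log2 fold change of enterocytes minus the mean of the other 8 epithelial types (horizontal axis) for the 8 members and for the tested genes of 7 pathway lists (rows), green where higher, red where lower and open where the adjusted p missed 0.05. The peroxisomal list lies wholly to the right of 0, and the 3 red points are Acsl4, Acsl3 and Mgll.

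Of the ketone body genes 5 were tested, and 3 were higher in enterocytes against the mean of the other types and 0 lower. These were Slc16a1, the monocarboxylate carrier, at 0.96 ± 0.18, Acat1, a mitochondrial acetoacetyl-CoA thiolase, at 0.94 ± 0.16 and Bdh1, which interconverts the main ketone bodies, at 0.57 ± 0.13. The call for Bdh1 was lost with the other types pooled (0.065, adjusted p = 0.651). For each of the 3 the unscaled CPM was not highest in enterocytes: Acat1 averaged 130.1 ± 8.5 (SD, n = 2) there and 155 ± 43 in TA cells. From TA cells to enterocytes 0 of the 5 were higher and 1 was lower, where 29.1% of all genes were higher and 22.6% lower, so the 1 lower gene is near the background. It was Oxct1, which activates acetoacetate for use as fuel and is named here after its value was seen. It had 94.6 CPM in replicate 1 and 78.5 in replicate 2 in TA cells, and 46.1 and 49.9 in enterocytes. The log2 fold change was −0.45 ± 0.18 (adjusted p = 0.0367).

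The 2 mice differed in level. Acadm, Acadl, Hadha and Hadhb were higher in replicate 1 in 9 of 9 epithelial types, as were 11.5% of all genes tested, while 4.19% were higher in replicate 2 in all 9. With types weighted equally the ratio of replicate 1 to replicate 2 was 2.65 for Ppara, 2.16 for Acadl, 1.90 for Acadm, 1.72 for Hadha, 1.45 for Hadhb and 1.28 for Cpt2. Ehhadh and Cpt1a were near parity, at 1.01 and 0.926. Each mouse has 1 library, so mouse, digestion and library cannot be told apart and no test was made. Median mitochondrial percent over kept cells was 10.2% in replicate 1 and 5.55% in replicate 2, and its part in these ratios was not tested.

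For each member the genes with the most similar pattern were sought by Pearson correlation of log2 levels over the 18 sums, centred within each mouse. The sums share mice and depth, so these are descriptions. Hadhb was most like Eci1, a mitochondrial enoyl-CoA isomerase (r = 0.95), Mdh1 and Ndufb7, and Acadm was most like Ndufb8 (0.93), Retsat and Myh14. Hadha came closest to Pnp (0.95), Nr1i3 and Ces2e. Cpt2 came closest to Cyp2d26 (0.92), Mtf1 and Adh6a, and Ehhadh to Slc20a1 (0.91), Acy1 and Atl2. Ppara was nearest to Cbl (0.92), Naaladl1 and Prkg2, Acadl to Malrd1 (0.91), Rnf13 and Lamp1, and Cpt1a to Vstm5 (0.93), Sema4g and Ipmk.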

How the data were processed

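Per the methods and the submitters' processing notes, the authors aligned reads to mm10 with Cell Ranger 3.0.1, removed free RNA with SoupX, discarded doublets and cells with under 1500 genes or over 25% mitochondrial reads, and clustered and named cells in Seurat (3.2.1 in the notes). The sources used here do not say whether the per-library matrices are those before or after SoupX. In the kept cells 2.73% of the listed matrix entries are 0. The authors deposited UMI counts per gene and barcode as whole numbers, and the mitochondrial percent of each cell in the deposited annotation. The annotation was joined by cell order and library, and 3275 of 3275 cells had the annotated UMI total in the table of the whole study. That table holds 2937 more cell columns, of another series, which were left out.

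UMI counts from the named matrices were summed per mouse and annotated type. Sums under 10 cells were to be left out, and none was in the main fit. The 18 epithelial sums were fitted with edgeR 4.0.16 (filterByExpr, TMM, robust quasi-likelihood, type and mouse as terms, 8 residual degrees of freedom, in R 4.3.3). The mouse is a block because the types with 1 replicate number come from the same animal. Tests were two-sided and adjusted by Benjamini-Hochberg over 11013 genes, threshold 0.05. The SE is the log2 fold change over the square root of F. Values per mouse (prior count 2) carry no test. Counts were also simulated for enterocytes against the mean of the others, over 11013 genes. Of 100 genes changed by a log2 fold of 1 89% were recovered, and of 100 changed by 2 99%. Of the unchanged genes 0.148% were called. The simulation had no mouse effect and no other difference between types. In the data 31.3% of genes were called higher and 23.2% lower, so these rates need not hold there.

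Intervals of CPM are exact Poisson at 95%, and 0 UMIs were taken to allow at most 3 UMIs. Both cover counting error only. Named were all 8 members, and of each pathway list the up to 3 genes of largest absolute change past the threshold in enterocytes and up to 2 against the list's direction, and the 3 genes most correlated with each member. The members and lists were chosen with earlier results of these data known. Some genes of the lists are not reported here and were left out of every list count. Alternatives were DESeq2 1.42.0, library totals without TMM, no filter, no mouse block, cells thinned to 5000 UMIs, a stricter cell filter (at least 2000 genes and at most 10% mitochondrial reads, 915 and 1057 cells), IEL added, Paneth cells left out, the other types pooled, and each mouse left out. Positions are from GENCODE M21 and start regions from RefSeq, both on GRCm38.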

Additional observations from a re-analysis of the deposited data

Results flagged for a closer look

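Barcodes that the authors did not keep also held the members' RNA, which no comparison above uses. The 8 members together measured 393 CPM (7982 UMIs) in 5583 such barcodes of replicate 1 and 148 CPM (223 UMIs) in 58 of replicate 2, both above the limit that a count of 0 allows. In kept cells the sums were 789 and 422 CPM. The mitochondrial share of UMIs in the barcodes not kept was 32.9% in replicate 1 and 2.18% in replicate 2, and its part in these levels was not tested.

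The step into mature cells differed between the absorptive and goblet lineages by the test of the difference itself for 7 members. On the log2 scale the absorptive step exceeded the goblet step by 2.39 for Ppara, 1.94 for Ehhadh, 1.43 for Acadm, 1.39 for Cpt2, 1.36 for Hadha, 0.93 for Acadl and 0.91 for Hadhb. Each was positive in both mice, but the size differed between them. In replicates 1 and 2 it was 1.91 and 3.11 for Ppara, 1.87 and 0.74 for Cpt2, and 1.32 and 0.23 for Acadl. The mouse block matters for this result, as given above.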

How the results depend on the processing

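Each comparison was recomputed under the alternatives named in the methods. In enterocytes against the mean of the other types, 7 members were called without the mouse block and with the other types pooled, and 8 otherwise. Without the replicate block the calls fell from 7 to 3 for enterocytes over TA cells, from 7 to 1 for the absorptive over the goblet step and from 1 to 0 for the fall in goblet cells. The pairing by mouse comes from the labels, and the spread between the mice is described above. Without a filter on low counts 1 member, Ppara, was lower in stem than in TA cells. In the goblet step 4 members were lower with library totals alone and 0 after thinning, without a share of all genes for these settings. The lower pathway genes numbered 3, 0 after thinning and 5 with the other types pooled, and the cause was not tested. With both mice kept, direction turned for: Cpt1a in enterocytes minus TA cells under the stricter cell filter (0.049), Acadl in stem minus TA cells after thinning (0.034), and, in goblet cells minus goblet progenitors, Acadm with DESeq2 (−0.022), library totals (−0.49), no filter (−0.058), no block (−0.028), thinning (−0.42) and the stricter cell filter (−0.058), Acadl with library totals (−0.31), Hadhb with library totals (−0.39) and thinning (−0.054), and Ehhadh after thinning (0.094). Acsl3 in enterocytes against the mean of the others ran from −1.41 to 0.40 with 1 mouse left out. The cause of the turns was not tested. For Acadm in the goblet step the main value was 0.00046 ± 0.21, so its sign there gives no direction. Of 408 recomputed member values 366 kept direction and side of the threshold or moved less than the spread. With either mouse left out there is no test. The 16 values for enterocytes against the mean of the others then ran from 0.42 to 2.43, those against TA cells from −0.03 to 1.83, those for stem minus TA cells from −1.11 to 0.24, those for the goblet step from −1.70 to 0.80, and those between the steps from −0.05 to 3.11. The sign then differed from that with both mice in 0, 1, 2, 6 and 1 of the 16 values, in this order. IEL and secretory progenitor sums are among the shallowest, and a gene at 0 in IEL could reach 11.4 to 13.3 CPM when 0 UMIs are taken as at most 3.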

Other observations

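The 65 tested genes of the pathway lists were also counted outside the absorptive step. For stem against TA cells and for the goblet step the counts were near or below the shares of all genes. In stem cells against TA cells 1 was higher and 0 lower (1.90% and 2.93% of all genes), Acot1, an acyl-CoA thioesterase, by 1.82 ± 0.26 on the log2 scale (adjusted p = 3.2e-05), 1.97 in replicate 1 and 1.62 in replicate 2. Acot1 is named here after its value was seen. It has a close paralog, Acot2, and the handling of reads that match both genes was not checked. From goblet progenitors to goblet cells 8 were higher and 7 lower (16.0% and 13.2% of all genes). The lower genes included Ppargc1a at −2.70 ± 0.55 (adjusted p = 0.000301), its relative Ppargc1b at −1.26 ± 0.30 (adjusted p = 0.00178) and Hadh at −0.89 ± 0.21 (adjusted p = 0.00172). The higher ones included Ech1, an isomerase of the oxidation of unsaturated chains, at 1.13 ± 0.16 (adjusted p = 2.3e-06) and Scp2, a peroxisomal thiolase and sterol carrier, at 0.82 ± 0.17 (adjusted p = 0.000275). These genes were also chosen after their values were seen. In the difference between the absorptive and goblet steps 32 pathway genes were higher and 2 lower (14.7% and 10.1% of all genes), Acsl3 at −1.98 ± 0.43 and Aacs, which activates acetoacetate for lipid synthesis, at −1.43 ± 0.36. These values were not recomputed under the alternatives.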
